A study of Rattus norvegicus with 3 samples.

Results

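The genes described here encode the mitochondrial respiratory chain and ATP synthase in rat granulosa cells. Members were all probe sets that the platform annotation maps to 1 gene symbol alone, where that symbol begins with Nduf, Uqcr, Atp5, Sdh followed by a, b, c or d, or Cox4 to Cox8, or is Cycs or Cyc1. This gave 102 probe sets for 91 genes, out of 31099 probe sets and 14218 genes with 1 symbol. Of the 91 genes, 34 were assigned to complex I, 4 to complex II, 8 to complex III, 16 to complex IV and 15 to complex V, so that 77 encode structural subunits. The rule also took in 11 assembly factors, the ATP synthase inhibitor Atp5if1, the paralog Ndufa4l2 and the pseudogene Cox6c-ps1. Another 9 probe sets of these families, among them those of cytochrome c (Cycs), carry several symbols and were left out.

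The respiratory chain sits in the inner mitochondrial membrane. Complex I takes electrons from NADH and complex II takes them from succinate, both pass them through ubiquinone to complex III, and cytochrome c carries them on to complex IV, which reduces oxygen. Complexes I, III and IV pump protons, and complex V, the ATP synthase, uses the proton gradient to make ATP. In steroid-making cells the same membrane holds the side-chain cleavage enzyme Cyp11a1, to which Star delivers cholesterol. The roles given below are those known from human, bovine or mouse mitochondria.

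The rats were immature Sprague-Dawley females of 24 to 25 days, whose granulosa cells were collected 48 h after PMSG, a gonadotropin that makes follicles grow, and then cultured. Gentamycin at 0.05 mg/ml was given for all 3 groups. Every group received an adenovirus at 50 pfu per cell for 2 h, and the groups were as follows. The NFIL3+FSK/PMA group carried Ad-NFIL3, a virus that expresses the basic leucine zipper repressor NFIL3, and 24 h later received 10 uM forskolin (FSK), which activates adenylyl cyclase, with 20 nM PMA, which activates protein kinase C. The FSK/PMA group carried Ad-GFP, a virus that expresses green fluorescent protein, and received the same agents. The control group carried Ad-GFP with no agent, and treated cells were taken after 6 h with the agents; the label of the control array also gives 6 h. Each group is 1 Affymetrix array of RNA pooled from 3 experiments, so no spread between replicates is known, no test was possible, and every value below describes 3 arrays.

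Values are MAS5 signals, the brightness of a probe set on a linear scale. The median of every deposited signal, 126, served as a floor to which lower signals were raised, and a gene was measured in a comparison if it exceeded that floor on either array compared. A gene is given by its brightest probe set. Differences are in log2 units, 1 being 2-fold.

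The promoters of the most different members are shown first because their sequence motifs are described further on. They are 300-base windows from 250 bases before to 50 bases after the transcription start, taken from RefSeq on build GRCr8. Capitals mark a match, on either strand, to a motif of nuclear respiratory factor 1 (NRF1, GCGCANGCG), of the ETS factors that include GABPA (CCGGAAG), of YY1 (AAGATGGCG) or of the half-site of the cyclic AMP response element (TGACG). The first set holds the 3 members with the highest differences between the FSK/PMA and control arrays. Ndufaf4, a complex I assembly factor, lies at chr5:43401545-43401844 on the plus strand. Atp5f1d, the delta subunit of the ATP synthase stalk, lies at chr7:10214301-10214600 on the minus strand, and Ndufa5, an accessory subunit of complex I, lies at chr4:53971186-53971485 on the minus strand.
Ndufaf4: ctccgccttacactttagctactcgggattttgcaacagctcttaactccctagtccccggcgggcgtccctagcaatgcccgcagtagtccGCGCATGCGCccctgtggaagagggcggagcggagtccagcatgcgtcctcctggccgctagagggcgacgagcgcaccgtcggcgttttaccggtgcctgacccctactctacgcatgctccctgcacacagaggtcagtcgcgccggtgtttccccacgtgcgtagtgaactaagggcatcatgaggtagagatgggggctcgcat
Atp5f1d: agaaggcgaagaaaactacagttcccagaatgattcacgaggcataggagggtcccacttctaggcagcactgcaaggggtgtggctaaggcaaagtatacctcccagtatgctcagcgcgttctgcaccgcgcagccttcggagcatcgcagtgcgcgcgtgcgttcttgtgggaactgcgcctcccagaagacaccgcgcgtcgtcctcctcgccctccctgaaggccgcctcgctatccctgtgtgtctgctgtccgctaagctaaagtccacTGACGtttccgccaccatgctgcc
Ndufa5: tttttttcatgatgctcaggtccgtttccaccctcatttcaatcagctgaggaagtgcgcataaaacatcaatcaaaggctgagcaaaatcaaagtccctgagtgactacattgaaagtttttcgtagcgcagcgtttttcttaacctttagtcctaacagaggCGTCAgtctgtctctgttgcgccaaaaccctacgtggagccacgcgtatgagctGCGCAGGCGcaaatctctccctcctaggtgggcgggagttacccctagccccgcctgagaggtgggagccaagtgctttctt

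The second set holds the 3 members with the lowest differences, which are all assembly factors. Sdhaf4, which helps to assemble complex II, lies at chr9:33912764-33913063 on the minus strand. Ndufaf8, a partner of the complex I factor Ndufaf5, lies at chr10:105879658-105879957 on the plus strand, and Ndufaf7, a methyltransferase that acts on a complex I subunit, lies at chr6:21871916-21872215 on the minus strand.
Sdhaf4: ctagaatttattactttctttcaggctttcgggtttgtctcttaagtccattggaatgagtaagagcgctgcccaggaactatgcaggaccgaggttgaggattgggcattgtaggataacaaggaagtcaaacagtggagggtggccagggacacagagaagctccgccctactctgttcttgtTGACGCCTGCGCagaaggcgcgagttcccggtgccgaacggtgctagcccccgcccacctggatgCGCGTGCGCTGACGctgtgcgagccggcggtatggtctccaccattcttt
Ndufaf8: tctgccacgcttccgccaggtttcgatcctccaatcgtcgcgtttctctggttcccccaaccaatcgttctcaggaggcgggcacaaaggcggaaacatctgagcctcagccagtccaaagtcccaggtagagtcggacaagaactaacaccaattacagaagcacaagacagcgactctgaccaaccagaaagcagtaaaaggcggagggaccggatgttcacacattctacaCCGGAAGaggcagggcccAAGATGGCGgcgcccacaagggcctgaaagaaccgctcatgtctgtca
Ndufaf7: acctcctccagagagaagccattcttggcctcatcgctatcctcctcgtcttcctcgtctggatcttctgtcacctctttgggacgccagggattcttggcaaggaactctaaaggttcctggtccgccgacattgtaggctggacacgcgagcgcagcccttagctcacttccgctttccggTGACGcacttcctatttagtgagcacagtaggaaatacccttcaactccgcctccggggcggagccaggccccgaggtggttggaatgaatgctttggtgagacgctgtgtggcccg

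Of the 91 genes, 84 were measured and 75 (82.42%) had a mean signal over the 3 arrays of at least 8 times the floor, against 25.73% of all genes. The 7 genes below the floor on every array were Cox4i2, Cox6a2, Cox6b2, Cox7a1, Cox7b2 and Cox8b of complex IV, and Ndufa4l2, a paralog of Ndufa4 known as a hypoxia-responsive gene. Cox6a2, Cox7a1 and Cox8b are known as the heart and skeletal muscle forms, Cox6b2 as a testis form and Cox4i2 as a lung form. Their general counterparts were measured, except Cox7a2, whose probe set carries several symbols. Cox4i1 had signals of 12077 on the NFIL3+FSK/PMA array, 12723 on the FSK/PMA array and 11197 on the control array, and Cox6a1 had 8640, 9628 and 8930 on the same arrays. None of the tissue-restricted forms named above was above the floor on any of the 3 arrays. The 13 subunits that mitochondrial DNA encodes were searched by symbols such as mt-Nd1, and no probe set with 1 symbol matched. Other spellings were not searched, so whether the array holds probe sets for them was not tested. The chain is described here through its nuclear genes alone.

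**Figure D1:**
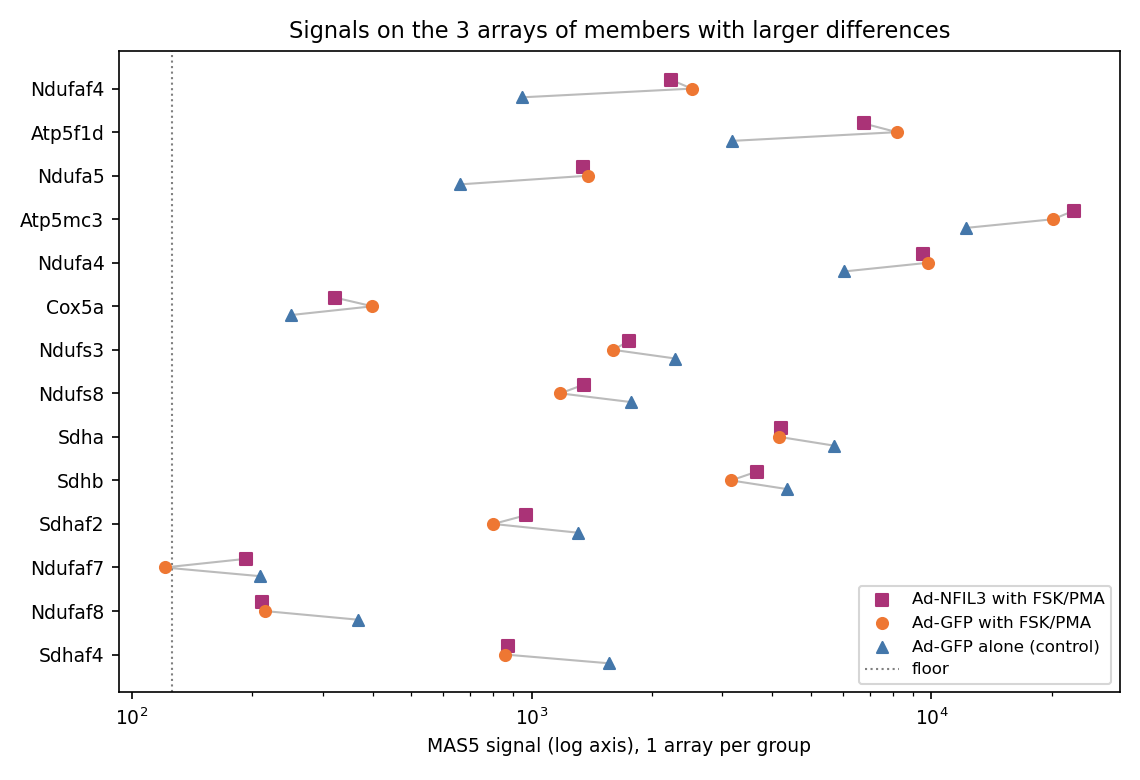
MAS5 signal (log axis) of named respiratory chain genes, 1 row per gene, with 1 point for each of the NFIL3+FSK/PMA, FSK/PMA and control arrays and a line at the floor. In Ndufaf4, Atp5f1d and Ndufa5 the control point lies apart to the left of both stimulated arrays, whereas in Sdhaf4 and Ndufaf8 it lies to their right.

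The first comparison asks how these genes respond to 6 h of forskolin and PMA. As a group they differed little between the FSK/PMA and control arrays. The median difference of the 84 measured genes was 0.01, with the quartiles at -0.26 and 0.17, and the median of all measured genes was -0.10. The members' median was 0.15 with arrays scaled to a common median and -0.08 under quantile normalisation, so its sign is not settled. Of the 84 genes, 3 were at least 2-fold higher, where 7.43% of all measured genes were, and none was 2-fold lower, where 11.4% were. Within 1.5-fold lay 86.9% of the respiratory chain genes, against 61% of all measured genes. Among bright genes, 64.9% of genes at 8 times the floor and 68.1% of genes at 32 times the floor lay within 1.5-fold, while 92.5% of the members at 32 times the floor did. The second brightness limit was chosen after the data were seen. The difference was above 0 in 44 of 84 members, against 43.3% of all measured genes, and above the median of all measured genes in 49 of 84, against 50% by construction, a count of 35 under quantile normalisation. At the smaller size of 1.5-fold, 6 members were higher and 5 lower, against 14.9% and 24% of all measured genes.

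**Figure D2:**
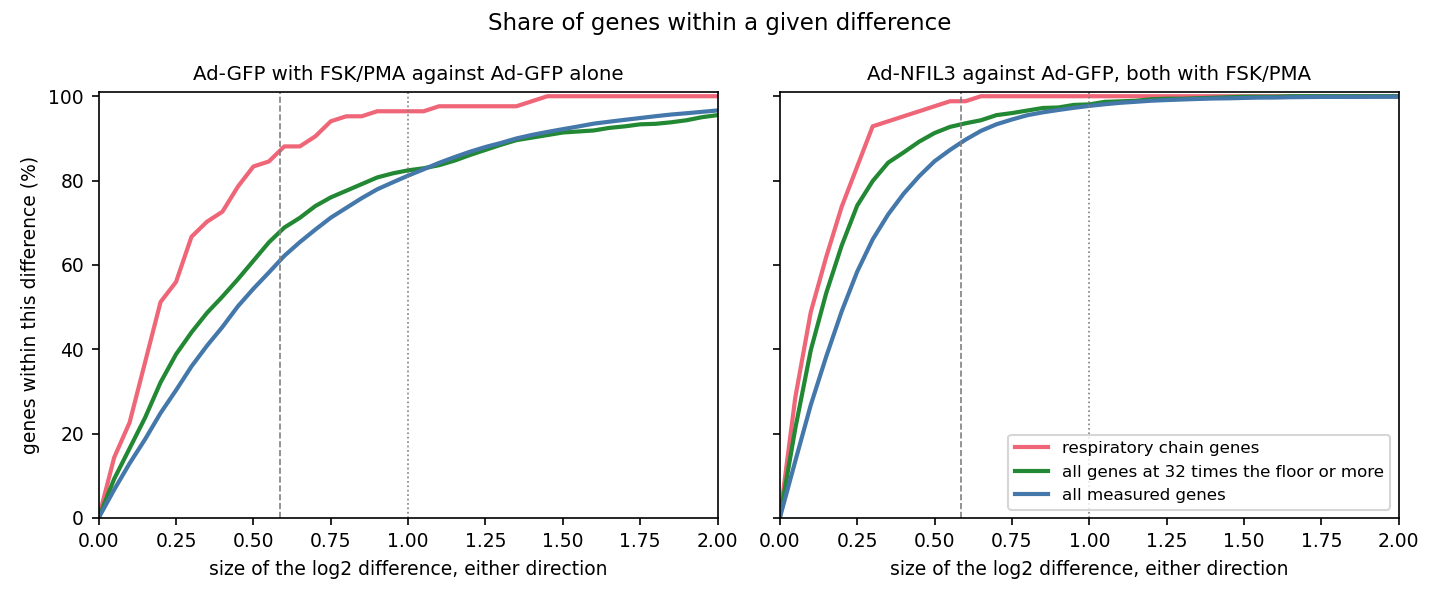
Share of genes (percent, y axis) whose difference lies within a given size (log2, x axis) for the respiratory chain genes, all measured genes and bright genes, in both main comparisons. The respiratory chain curve runs above the others: within 1.5-fold it holds 86.9% of members for the FSK/PMA array minus control and 98.8% for the NFIL3+FSK/PMA array minus the FSK/PMA array.

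In complex I the 34 genes had a median difference of -0.02 (-0.12 to 0.12 over the settings), and 1 of them passed 2-fold. Ndufa5 had a signal of 1384 on the FSK/PMA array, against 660 on the control array, which is 2.10-fold higher. Its signal on the NFIL3+FSK/PMA array was 1344, so both stimulated arrays lay well above the control array. At the other end, Ndufs8, an iron-sulfur subunit, had 1179 on the FSK/PMA array, against 1771 on the control array, a difference of -0.59. Ndufa6, an accessory subunit of the LYR motif family, had 2260 against 3316, a difference of -0.55. The brightest complex I gene, Ndufb4, had 6218 on the FSK/PMA array and 8315 on the control array, a difference of -0.42, and the dimmest, Ndufb8, had 412 and 338, a difference of 0.29. The remaining complex I genes lay between -0.52 (Ndufs3) and 0.48 (Ndufa12, which had 6060 on the FSK/PMA array against 4346 on the control array).

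The catalytic core of complex I, conserved down to bacteria, had lower values than the accessory subunits around it. The 6 measured core genes (Ndufv1, Ndufv2, Ndufs1, Ndufs3, Ndufs7 and Ndufs8) encode subunits that hold the flavin, the iron-sulfur clusters or the scaffold beside them. All 6 genes had lower signals on the FSK/PMA array. Their median difference was -0.33 and their range -0.59 to -0.01, where 56.7% of all measured genes were below 0. Ndufs3 had 1598 on the FSK/PMA array, against 2289 on the control array, and Ndufs1 had 1657, against 2190. The 28 accessory genes had a median of 0.02. The core was set apart after its values were seen, and no single core gene passed 1.5-fold except Ndufs8, so the split is a description of small differences in 1 direction.

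Complex II, the succinate dehydrogenase, showed a split between its matrix subunits and its membrane anchors. Sdha, the flavoprotein, had 4161 on the FSK/PMA array, against 5699 on the control array, a difference of -0.45. Sdhb, the iron-sulfur subunit, had 3153 against 4359, a difference of -0.47. The membrane anchors lay near 0: Sdhc had 3892 against 3984, a difference of -0.03, and Sdhd had 3683 against 3456, a difference of 0.09. In complex III no gene passed 1.5-fold, and the median of the 8 genes was 0.04, which turned to -0.12 under quantile normalisation. Cyc1, the cytochrome c1 subunit, had 4203 on the FSK/PMA array and 3942 on the control array. The largest differences in complex III were -0.37 for Uqcr11, 0.28 for Uqcrq and -0.26 for Uqcrc2, the core protein 2. Uqcrfs1, the Rieske iron-sulfur protein and the brightest gene of the complex, had 9302 against 8234, a difference of 0.18.

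Complex IV and complex V leaned the other way. Of the 10 measured complex IV genes 8 were above 0, with a median of 0.19, and of the 15 complex V genes 10 were above 0, with a median of 0.11. Most of these genes are very bright, and of all genes at 32 times the floor 67.3% were above 0, with a median of 0.18, so this lean is near that of other bright genes. Under quantile normalisation it flips, to -0.02 for complex IV and -0.04 for complex V. Ndufa4, first counted to complex I and now to complex IV, had 9811 on the FSK/PMA array, against 6043 on the control array, 1.62-fold higher. Cox5a, a matrix-side subunit and the dimmest measured one, had 399 against 250, a difference of 0.67. Cox7c, the brightest, had 14017 against 11369, a difference of 0.30, and Cox8a had 7302 against 7907, a difference of -0.11.

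Of the structural genes, the ATP synthase subunit Atp5f1d had the largest difference. It had a signal of 8195 on the FSK/PMA array, against 3177 on the control array, which is 2.58-fold higher. Atp5mc3, one of the genes for the membrane-ring subunit c, had 20155 against 12184, 1.65-fold higher. The other F1 genes did not share the Atp5f1d difference: Atp5f1b, the catalytic beta subunit, had 18205 against 18200, Atp5f1a, the alpha subunit, had 9230 against 10038, and Atp5f1e, the epsilon subunit that sits with delta in the stalk, had 8085 against 8680. Atp5f1c, the gamma subunit, had 7080 against 9373, the lowest difference of the complex at -0.40. Thus the F1 subunits that assemble together ranged from -0.40 to 1.37 in 1 comparison. Atp5if1, which inhibits the enzyme's ATP hydrolysis, had 4244 against 3880, a difference of 0.13.

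The assembly factors, which build the complexes and are not part of them, had the widest range. Of the 11 genes 8 were below 0, where 56.7% of all measured genes were, and the median was -0.43. Sdhaf4 had a signal of 859 on the FSK/PMA array, against 1556 on the control array, 1.81-fold lower. Sdhaf2, which helps to attach flavin to Sdha, had 801 against 1304, 1.63-fold lower. Sdhaf1 and Sdhaf3, which serve the iron-sulfur subunit Sdhb, had differences of -0.39 and -0.43, so all 4 complex II factors were lower, as Sdha and Sdhb were. Ndufaf8 had 215 against 369, 1.72-fold lower. Ndufaf7 was below the floor on the FSK/PMA array and had 209 on the control array, at least 1.66-fold lower. Ndufaf3, with 682 against 1012, had a difference of -0.57.

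Against these stood Ndufaf4, with the highest difference of all 84 genes. It had 2514 on the FSK/PMA array and 2232 on the NFIL3+FSK/PMA array, against 945 on the control array, and was 2.66-fold higher on the FSK/PMA array. Ndufaf3, known to work in a pair with Ndufaf4, lay on the other side of 0, as given above. Ndufaf5, with 294 against 237, and Ndufaf1, with 151 against 136, had differences of 0.31 and 0.15 near the floor. Cox7a2l, a factor for the joining of complexes into supercomplexes, had 6498 against 7585, a difference of -0.22. The complex I median exceeded the assembly factor median by 0.41, and by 0.28 to 0.46 over the 7 settings of scaling, floor and probe set choice. The complex IV median exceeded the complex I core median by 0.52, and by 0.35 to 0.52 over those settings. The core was set apart after its low values were seen, so a gap of this direction was built in. Most complex IV genes are also brighter than the core genes. All genes at 32 times the floor had a median of 0.18, and those at 8 times the floor 0.06.

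**Figure D3:**
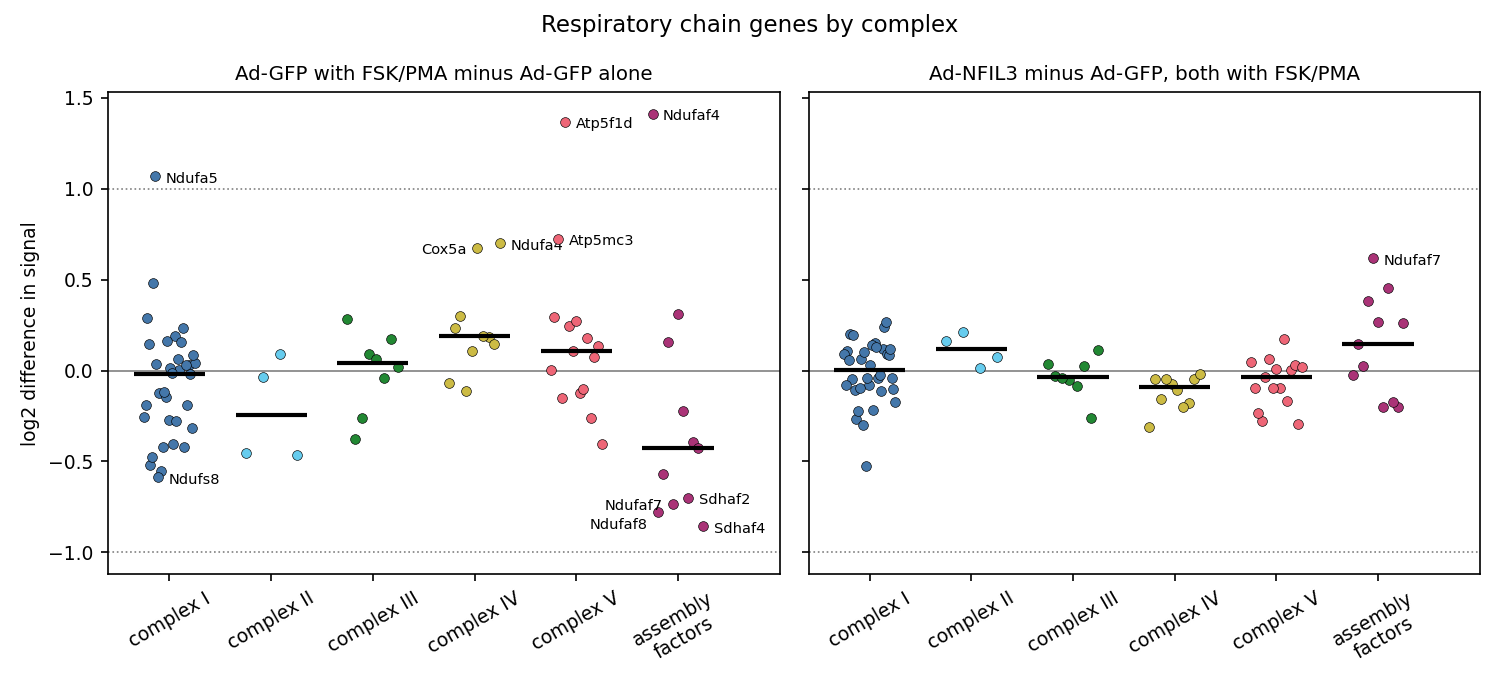
Log2 difference in signal (y axis) of each measured gene, 1 point per gene and 1 column per complex, with bars at the medians, for the FSK/PMA array minus control (left) and for the NFIL3+FSK/PMA array minus the FSK/PMA array (right). On the left Ndufaf4, Atp5f1d and Ndufa5 lie past 2-fold and the assembly factors span the widest range, and on the right all genes lie within 2-fold.

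The second comparison asks how NFIL3 acts on these genes in cells that received the same agents. Nfil3 itself had a signal of 5882 on the NFIL3+FSK/PMA array, 1321 on the FSK/PMA array and 564 on the control array. The respiratory chain genes differed little. Their median was -0.02, where that of all measured genes was 0.03, and none was 2-fold higher or lower, where 2.3% of all measured genes were. Within 1.5-fold lay 98.8% of the 84 genes, against 88.9% of all measured genes, 93.2% of those at 8 times the floor and 93.5% of those at 32 times the floor. Above the median of all measured genes lay 31 of 84 members, against 50% of all, a count that turns to 50 under quantile normalisation. The SD over the 75 members at 8 times the floor was 0.14. Over 537 genes with a pair of probe sets at that brightness, the pairs' disagreement gave a robust SD of 0.16 for a single probe set's difference. This error includes each gene's dimmer probe set, whereas members are given by their brightest. The 2 values therefore cannot show whether the members differ beyond measuring error. The error covers the probe sets and leaves out the spread between cultures. In the FSK/PMA comparison the SD of these 75 members was 0.40, with quartiles at -0.26 and 0.16, and that error was 0.25 (587 genes). In both comparisons the members' value is a plain SD, which a few large differences widen. The error is a robust SD, so the measures are unlike.

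Ndufaf7 was the 1 member past 1.5-fold, where 6.81% of all measured genes were 1.5-fold higher and 4.25% lower. It had a signal of 193 on the NFIL3+FSK/PMA array and was below the floor on the FSK/PMA array, so it was at least 1.53-fold higher, both values being near the floor. The lowest difference was that of the complex I subunit Ndufb8, with 286 on the NFIL3+FSK/PMA array against 412 on the FSK/PMA array, a difference of -0.53. Ndufaf1 had 207 against 151 (0.45) and Ndufaf3 had 889 against 682 (0.38). Of the bright genes, Ndufa3 (1875 against 2308) and Atp5pf (4651 against 5706) had differences of -0.30 and -0.29. Atp5f1d had 6763 against 8195 and Ndufaf4 had 2232 against 2514, differences of -0.28 and -0.17, so both stayed well above the control array.

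By complex, the medians were 0.00 for complex I, 0.12 for complex II, -0.04 for complexes III and V, -0.09 for complex IV and 0.15 for the assembly factors. All 10 measured complex IV genes were below 0, from -0.31 for Cox5a to -0.02 for Cox8a, where 45.2% of all measured genes and 65.1% of those at 32 times the floor were. For these 10 genes this did not hold in 1 of the 7 settings, in which Cox6b1, Cox6c, Cox8a and Ndufa4 were above 0. In another setting, with a lower floor, Cox6a2, Cox7a1 and Cox7b2 also became measured, at -0.50, 0.07 and 0.39. All 6 complex I core genes were above 0, from 0.06 to 0.20, where 54.8% of all measured genes were. With arrays scaled to a common median, the medians of the core genes, complex II and the assembly factors flip to -0.11, -0.12 and -0.09, because that scaling moves the median of all genes to -0.20. Quantile normalisation turns those of complexes III and V to 0.06 and 0.01. Within the arrays, the complex IV median minus the complex I core median was -0.22, and -0.22 to -0.18 over the 7 settings. Here too the core had been set apart after its values were seen. All genes at 32 times the floor had a median of -0.07, and those at 8 times the floor -0.03. The FSK/PMA array enters both comparisons, with a plus sign in the first and a minus sign in the second, so opposite signs in these comparisons are not independent. It also had the highest 3′ to 5′ signal ratios of the 3 arrays for beta actin (3.80) and hexokinase (5.04), though not for Gapdh, and their part in these small differences was not tested.

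The third comparison sets the NFIL3+FSK/PMA array against the control array. The median of the 84 members was -0.07 and that of all measured genes -0.03. The genes past 2-fold were Ndufaf4 at 2.36-fold, Atp5f1d at 2.13-fold and Ndufa5 at 2.04-fold, all higher, where 15.6% of all measured genes passed 2-fold in either direction. Atp5mc3, at 22766 against 12184, was 1.87-fold higher, and Ndufa4, at 9502 against 6043, was 1.57-fold higher. Ndufaf1, at 207 against 136, was 1.52-fold higher. At 1.5-fold 6 members were higher and 4 lower, against 14.6% and 20.1% of all measured genes. On the lower side were Sdhaf4, at 874 against 1556 (1.78-fold), Ndufaf8, at 211 against 369 (1.75-fold), Sdhaf3, at 244 against 377 (1.55-fold), and Ndufa6, at 2187 against 3316 (1.52-fold). Within 1.5-fold lay 88.1% of the members, against 65.2% of all measured genes.

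Of the 91 genes, 10 have at least 2 probe sets, and these did not always give the same difference. For Sdhd the dimmer probe set had 3046 on the NFIL3+FSK/PMA array, 1734 on the FSK/PMA array and 1685 on the control array, so that NFIL3 minus FSK/PMA was 0.81. The brighter one had 3885, 3683 and 3456 on the same arrays, and a difference of 0.08. For Ndufa7, an accessory subunit of complex I, the dimmer probe set had 317, 236 and 195 and a difference of 0.43, against -0.22 for the brighter one. For Ndufv3, another accessory subunit, FSK/PMA minus control was -0.64 by the dimmer probe set and -0.12 by the brighter. The 2 probe sets of Uqcrc2 gave -0.36 and -0.26. The pseudogene Cox6c-ps1 had signals of 190, 143 and 161, near the floor, and whether RNA of Cox6c, its functional copy, binds its probes was not tested.

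Genes around the respiratory chain give the setting for these values. Scaling to a common median moves the median of all genes to 0.03 in the FSK/PMA comparison and to -0.20 in the NFIL3 comparison, so the sign of a list median near 0 depends on it. The 31 measured assembly factors outside the membership rule had a median FSK/PMA difference of -0.26, with 25 of 31 below 0, where 56.7% of all measured genes were. Tmem126b, which builds the membrane arm of complex I, had 952 on the FSK/PMA array, against 2794 on the control array, 2.93-fold lower, and Nubpl, which delivers iron-sulfur clusters to complex I, had 207 against 533, 2.57-fold lower. Oxa1l, which inserts proteins into the inner membrane, had a difference of -0.84, and Ttc19, a complex III factor, had 0.90. In the NFIL3 comparison their median was 0.08, and the largest differences were Nubpl at 0.97, Atpaf1, an F1 assembly factor, at 0.59, Hccs, which attaches heme to cytochrome c, at -0.50, and Foxred1, a complex I assembly factor, at 0.40.

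The 19 regulators of mitochondrial biogenesis had a median FSK/PMA difference of 0.10. Of them 12 were above 0, where 43.3% of all measured genes were, and 7 below. At 1.5-fold 5 were higher and 1 lower, against 14.9% and 24% of all measured genes. The orphan receptor Esrra had 736 on the FSK/PMA array, against 361 on the control array, 2.04-fold higher. The coactivator Pprc1, with 874 against 448, had a difference of 0.96, and Nrf1, with 465 against 249, had 0.90. Mterf3, a factor of mitochondrial transcription and ribosome assembly, had 0.87. On the NFIL3+FSK/PMA array Pprc1 had 618 and Nrf1 had 362, differences of -0.50 and -0.36 from the FSK/PMA array. Yy1, with 4200 against 5898, had -0.49, and Gabpa, with 1367 against 1087, had 0.33. None of the 18 regulators measured in that comparison passed 1.5-fold, where 11.1% of all measured genes did.

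The 73 mitochondrial ribosomal proteins, which translate the subunits of mitochondrial DNA, had a median FSK/PMA difference of -0.05. Mrps12 (4982 against 2045) and Mrps6 (2938 against 1380) were 2.44-fold and 2.13-fold higher, while Mrps33 and Mrps24 had -0.89 and -0.77. Mrps12 was another 1.59-fold higher on the NFIL3+FSK/PMA array, at 7936. The list of cytosolic ribosomal proteins, which serves here as another set of subunits, left out symbols made of Rpl and a number alone. Its 19 measured genes cover only part of that ribosome and had a median of 0.12, with none past 2-fold. The last list holds 29 other measured mitochondrial genes, among them carriers and enzymes of the inner membrane. Their median was -0.30, with 21 of 29 below 0, where 56.7% of all measured genes were. In this list 5 genes exceeded 2-fold upward and 2 downward, where 7.43% and 11.4% of all measured genes did. Coq10b, a ubiquinone-binding protein, had 4480 on the FSK/PMA array, against 821 on the control array, 5.46-fold higher. Star had 35937 against 7352, and Cyp11a1 had 17019 against 5525, 4.89-fold and 3.08-fold higher. Fdx1, which feeds electrons to Cyp11a1, was 3.55-fold higher, and Sod2, the matrix superoxide dismutase, was 3.75-fold higher. On the lower side, Nnt, the proton-driven transhydrogenase, had 1407 against 3878, 2.76-fold lower, and Coq8a, needed to make ubiquinone, was below the floor on the FSK/PMA array and at 642 on the control array, at least 5.10-fold lower. With NFIL3, Coq10b (2587) and Star (22231) differed from the FSK/PMA array by -0.79 and -0.69.

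**Figure D4:**
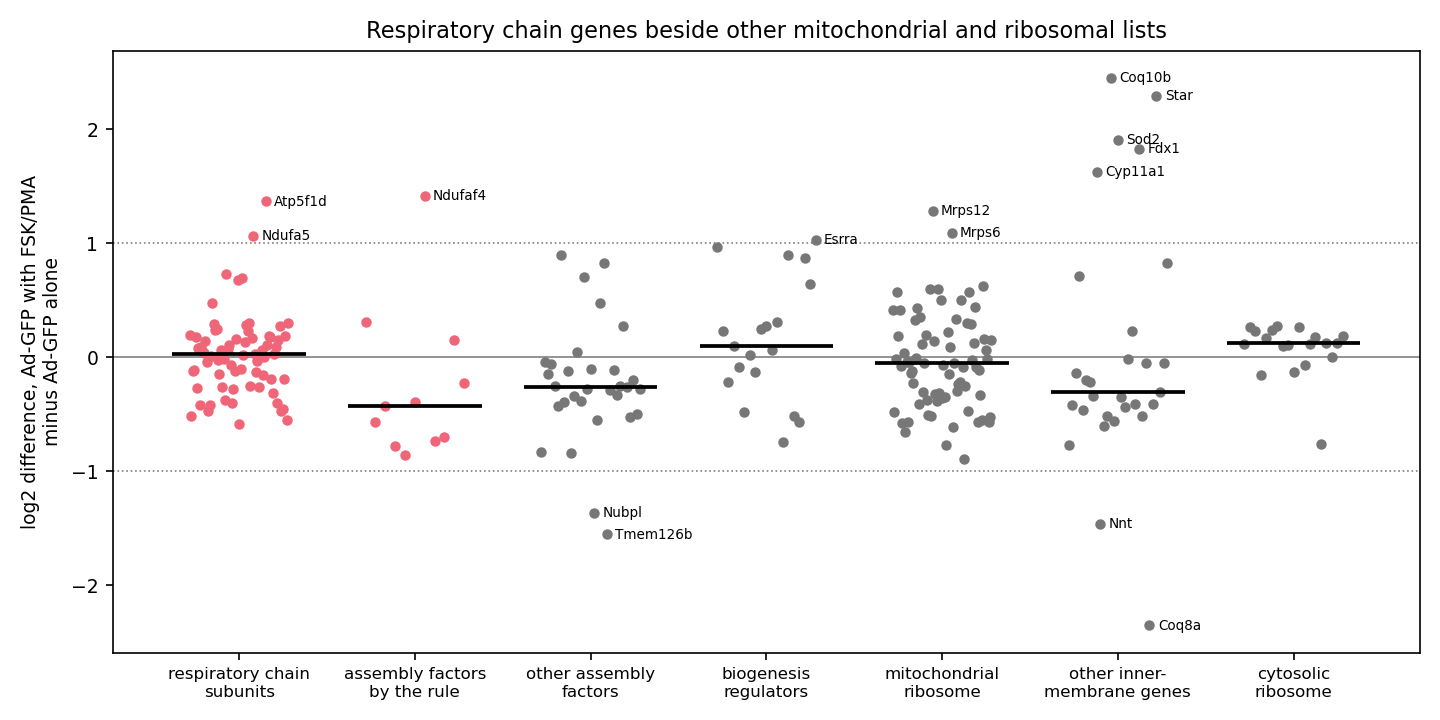
Log2 difference in signal of each measured gene (points) and the median (bar), for the FSK/PMA array minus control. Columns hold the respiratory chain subunits, the assembly factors of the membership rule and the lists around them. The column named other inner-membrane genes, which also holds other mitochondrial genes, spreads up to Coq10b at 2.45. The subunits end at Atp5f1d with 1.37, and the assembly factors of the rule at Ndufaf4 with 1.41.

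Promoters of 82 members were matched in RefSeq. The NRF1 motif was present in 21 of 82 (25.6%), against 16.2% of the promoters of other genes at 8 times the floor and 5.80% of all 33469 promoters. The ETS motif was present in 25 (30.5%, against 21.7% and 8.75%) and the YY1 motif in 11 (13.4%, against 4.81% and 1.73%). At least 1 of these 3 motifs was present in 47 of 82 promoters (57.3%), against 36.3% of the other bright genes and 14.5% of all promoters. The half-site of the cyclic AMP response element was present in 37 (45.1%, against 37.4% and 21.2%), and the whole element, TGACGTCA, which contains the half-site on both strands, in the 3 promoters of Cox8a, Ndufb2 and Sdhb (3.66%, against 3.66% and 1.83%). The NFIL3 motif, TTACNTAA or TTATGTAA, was found in none of the 82 promoters, against 1.24% of the other bright genes and 2.24% of all promoters, which says only that these letters are not in these windows. Both strands were searched, and NRF1 matches on opposite strands can overlap, as in Ndufaf4.

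Among the sequences printed above, Ndufaf4 has the NRF1 motif on both strands at base -158 from the start, and Ndufa5 has it at -32 with a half-site of the cyclic AMP response element at -86. Sdhaf4, a member at the low end, has the NRF1 motif too, at -62 and 1, and half-sites at -65 and 10. Ndufaf8 has the ETS motif at -16 and the YY1 motif at 3, Atp5f1d has a half-site at 27 and Ndufaf7 has one at -67. Motifs thus occurred at both ends of the range. Members with the NRF1 motif had a median FSK/PMA difference of 0.02, against -0.01 for those without it, and members with the ETS motif had -0.11, against 0.00. Members with the half-site had 0.03, against -0.10.

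**Figure D5:**
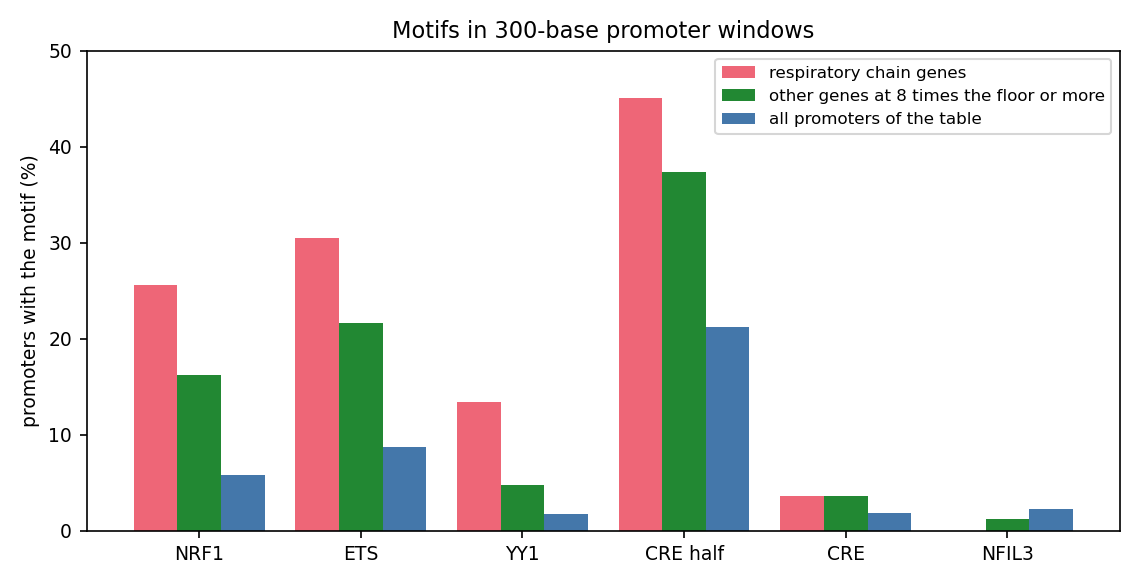
Share of promoters (percent) that hold each motif among the respiratory chain genes, other genes at 8 times the floor and all promoters in RefSeq. NRF1, ETS and YY1 motifs were present in 25.6%, 30.5% and 13.4% of the 82 member promoters.

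Other properties of the arrays also differed between the groups. The ratio of 3′ to 5′ signal for beta actin was 3.08 on the NFIL3+FSK/PMA array, 3.80 on the FSK/PMA array and 2.61 on the control array, that for hexokinase was 2.98, 5.04 and 3.21, and that for Gapdh was 1.14, 1.15 and 1.28. The median signal of all probe sets was 135.8, 115.3 and 126.8 on the same arrays. The geometric mean signal of the spiked hybridisation controls was 4823, 4611 and 3300 on these arrays, lowest on the control array, and its part in the results was not tested. All 9 granulosa markers on the array were measured, and their summed signal was 33856, 62012 and 78616. Between the FSK/PMA and control arrays their median difference was -1.18, with 5 of 9 at least 2-fold lower and 1 higher. Of the markers of other cells, 6 of 10 for theca and stroma, 5 of 8 for leukocytes, 1 of 5 for oocytes, 2 of 5 for endothelium and 2 of 2 for red cells were above the floor on some array. The summed signal was 1535, 1075 and 1323 for theca and stroma, 3205, 2881 and 2074 for leukocytes, 430, 575 and 967 for oocytes, 529, 485 and 418 for endothelium, and 15713, 18366 and 19937 for red cells. The theca markers Cyp17a1 and Insl3 and the leukocyte marker Ptprc were below the floor on all 3 arrays. The part of RNA quality and of other cells in the results was not tested. In RNA of whole cultures, fewer cells of a type and less RNA per cell cannot be told apart.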

How the data were processed

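The authors deposited 1 table of MAS5 intensity values per probe set for 3 arrays, 1 per group. Per the submitters' processing notes the program was MAS5, of unstated version. All 3 deposited columns had a 2% trimmed mean of 500.2, so the intensity values had been scaled before deposit. Scaling to the same trimmed mean, the floor, log2 and the choice of the brightest probe set per gene were computed here with Python 3.11.15, numpy 2.4.6 and pandas 2.3.3, and the code was tested on simulated data. Of 31099 probe sets, 20832 carry 1 symbol, 436 several and 9831 none in the platform annotation; 20764, among them all 102 member probe sets, matched the RefSeq gene table (GRCr8). The members, gene lists and naming rule were chosen with earlier results of these data known. The text names members past 1.5-fold in any comparison, the brightest and dimmest gene and the 3 largest differences of each complex, paralogs, discordant probe sets, and up to 4 genes of each other list. Other genes given as examples were chosen after their values were seen. With 1 array per group there is no p-value, and precision is limited by the number of arrays. MAS5 subtracts mismatch signals, which makes low values noisy. Alternatives were another floor, scaling to a common median, quantile normalisation, the mean of probe sets, plain probe sets only, structural subunits only and a 1.5-fold limit.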

Additional observations from a re-analysis of the deposited data

How the results depend on the processing

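No paired analysis was possible because each group is 1 array. Scaling to a common median gave medians of the 84 genes of 0.15 for FSK/PMA minus control and -0.26 for NFIL3+FSK/PMA minus FSK/PMA, and left 1 gene past 2-fold in NFIL3+FSK/PMA minus control, where the main setting had 3. It moved the median of all measured genes to 0.03, -0.20 and -0.13 in the 3 comparisons, and in NFIL3+FSK/PMA minus FSK/PMA it turned the medians of the complex I core genes (-0.11), complex II (-0.12) and the assembly factors (-0.091). Quantile normalisation turned the FSK/PMA minus control medians of complex IV (-0.022) and complex V (-0.043). It put 50 of 84 genes (59.5%) above the median of all genes in NFIL3+FSK/PMA minus FSK/PMA. The main setting had 31 (36.9%) there. The other settings, some of which measured other numbers of members, had 33.8% to 47.4%. In FSK/PMA minus control the main setting had 49 (58.3%), and the alternatives had 41.7% to 63.4%. Quantile normalisation also turned the FSK/PMA minus control median of complex III to -0.12. With structural subunits only, 2 genes were past 2-fold in NFIL3+FSK/PMA minus control. At 1.5-fold, 11, 1 and 10 genes were counted in the 3 comparisons. Ndufaf4, Atp5f1d and Ndufa5 stayed past 2-fold in FSK/PMA minus control under each of the 7 settings of floor, scaling and probe sets. The causes were not tested. Differences of genes near the floor, such as Ndufaf7, Ndufaf1 and Ndufaf8, rest on signals that the array measures poorly.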
